A study of Danio rerio with 18 samples.

Results

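Levels of 7 genes of cholesterol and unsaturated lipid synthesis were followed in the zebrafish (Danio rerio) brain after spinal cord injury. The genes were hmgcs1, mvk, msmo1, dhcr7, stard4, fads2 and scd. They were chosen with earlier results of these data known. Counts of these members beside shares of all probe sets are therefore a description and carry no test. Every probe set annotated to one of these symbols alone was taken, which gave 7 probe sets, 1 per gene, of the 15502 tested. The tested probe sets with a single symbol stand for 8793 genes.

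Cholesterol is built from acetyl units through the mevalonate pathway, and its late steps trim and reduce a sterol ring. In mammals the transcription factors of the SREBP family switch on enzymes of this pathway when sterols in the endoplasmic reticulum run low, and related factors act on fatty acid desaturases. Cholesterol in the brain is largely made within the brain, since lipoproteins of the blood do not readily enter it. Of the members, hmgcs1 (HMG-CoA synthase) makes the substrate of the rate-limiting reductase and mvk (mevalonate kinase) takes the product of that reductase forward. The oxidase msmo1 removes methyl groups from the sterol ring, and dhcr7 is the reductase of a final step to cholesterol. The protein stard4 carries sterols between membranes inside the cell. The desaturase fads2 acts in the synthesis of long polyunsaturated fatty acids, and scd makes monounsaturated fatty acids from saturated ones.

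The study hybridised 18 single-colour Affymetrix arrays, 1 per RNA sample, in 6 groups of 3. The NMLF (nucleus of the medial longitudinal fascicle), a group of midbrain neurons with axons that run down the spinal cord and can regrow after the cord is cut, was collected by laser capture. Fish had either a transected spinal cord or sham surgery, which served as control, and were sampled 4 h, 12 h or 11 d after surgery. The times separate early events from the period of regrowth. No strain, age, genotype, transgene or agent is named for any group. Source animals and any pooling are not named in the labels, so p-values measure only the spread between these samples. No uncut, unoperated group was among the samples analysed, so changes over time include recovery from surgery in both arms.

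Some array properties differed between times. The ratio of 3' to 5' GAPDH control signals, which grows as RNA is shortened, was 1.53 to 2.04 at 4 h, 3.15 to 5.40 at 12 h and 1.39 to 2.88 at 11 d. The 12 h arrays therefore lay above all others, and the part of this in the differences between 12 h and the other times was not tested. The deposited mean signal, trimmed by 2% at each end, was 150.0 on 16 arrays, but 100.4 on sham replicate 3 and 92.6 on transected replicate 3 at 4 h. All signals below are quantile normalised, with values under 16 raised to 16, and differences are on the log2 scale with SE from 1 model of all 18 arrays. A gene passed the test when its limma p, adjusted over all 15502 probe sets, was under 0.05. Shares of all probe sets include those at the floor, which were 27.5% to 27.6% of probe sets on each array. Probe sets at the floor throughout both groups count as neither higher nor lower, so shares among those that differed are larger. Captured tissue is a mixture of cells, and fewer cells of a type and less RNA per cell cannot be told apart in these data. Neuronal transcripts were present throughout: 9 of 13 listed neuronal markers were measured, none was at the floor on all 3 arrays of any group, and their summed signal was 12706 to 24306 per array.

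At 4 h most members had higher signals in transected than in sham tissue, but none passed the test. The log2 difference was above 0 for 6 of 7 members, against 6282 of all probe sets (40.5%), where 6494 were below 0. The members' median was 0.26, beside 0.0 over all probe sets. limma called 0 of 7 members and 0.0% of all probe sets. At an unadjusted p under 0.05 stood 2 of 7 members, hmgcs1 and mvk, against 2.27% of all probe sets.

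The early mevalonate enzymes had the widest differences at 4 h. The signal of hmgcs1 was 778, 854 and 1087 on sham replicates 1 to 3 and 1741, 2053 and 1014 on transected replicates 1 to 3. Transected replicates 1 and 2 thus lay above every sham array, while replicate 3 lay within the sham range. The log2 difference was 0.78 ± 0.33 (adjusted p = 1.0, limma). For mvk the signal was 55.3, 28.5 and 23.0 on sham arrays and 89.3, 61.7 and 46.1 on transected arrays. Each transected array exceeded the sham array of the same number, though sham replicate 1 lay above transected replicate 3. Its log2 difference was 0.94 ± 0.36 (adjusted p = 1.0), and the SE of the 3 same-number differences was 0.13. Such an SE was wider than that of the model for hmgcs1 (0.439) and dhcr7 (0.485), and narrower for the rest of the members. Same-numbered sham and transected arrays deviated together at this time, and with the number as a block the adjusted p of mvk was 0.372.

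The other members differed less at 4 h. For msmo1 the sham signals were 661, 447 and 458 and the transected ones 999, 707 and 452, a log2 difference of 0.41 ± 0.40. Here too replicates 1 and 2 were the high ones after transection. The differences were 0.26 ± 0.30 for stard4, 0.24 ± 0.36 for fads2 and 0.16 ± 0.36 for scd. Only dhcr7 was lower, by a log2 difference of -0.09 ± 0.26, and it turned to 0.29 without both replicate 3 arrays and to 0.004 when arrays were scaled to one median. Sham and transected arrays overlapped for all 7 members, where 2.67% of all probe sets did not overlap with the transected arrays higher. Over same-numbered arrays the median difference of the members was 0.60 for replicate 1, 0.66 for replicate 2 and -0.02 for replicate 3. The replicate 3 arrays are those with the low deposited mean signal, and without both of them the difference of hmgcs1 was 1.21 and the median of the members 0.41, still with none passing. Leaving these arrays out was added after the data were seen, and it removes the same-numbered arrays with the lowest median difference.

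**Figure D1:**
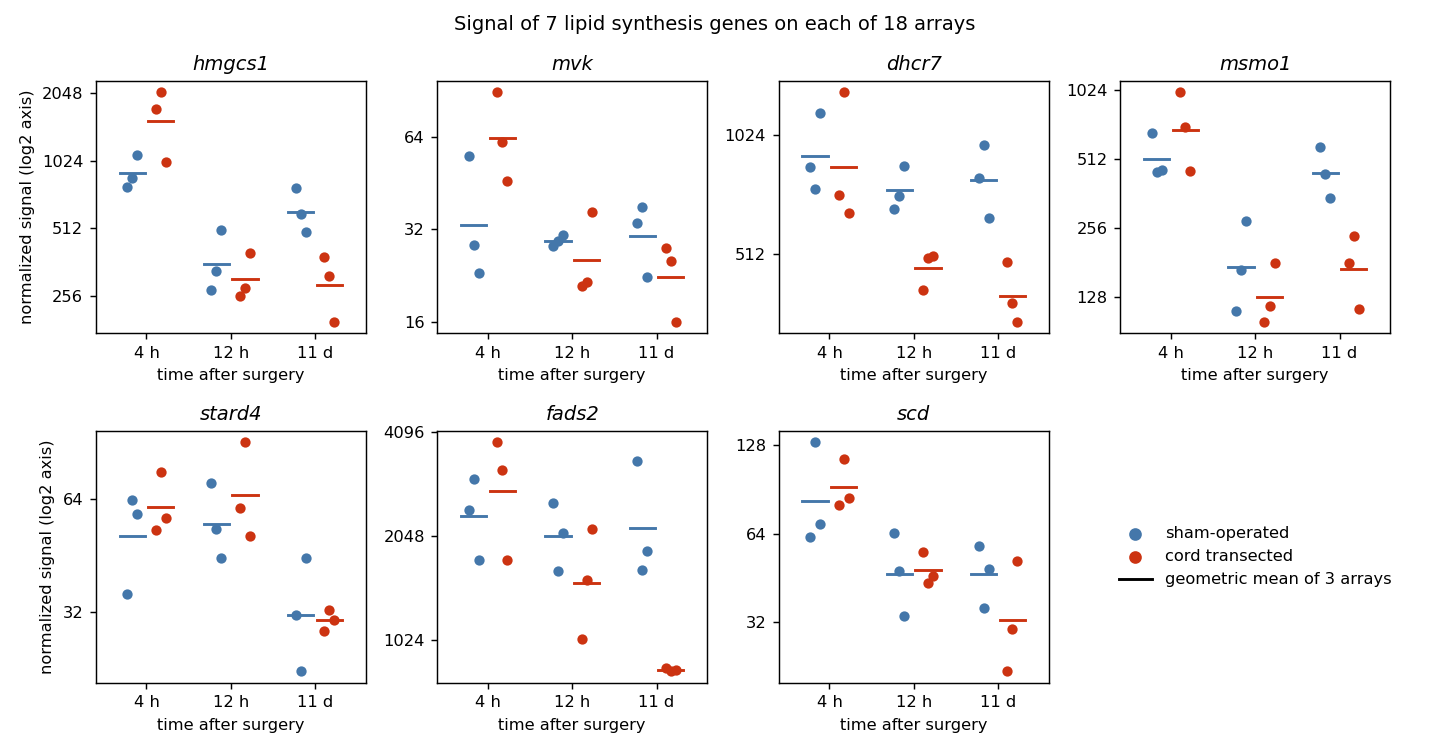
Normalised signal (log scale) of the 7 genes on each of the 18 arrays, by time, with sham and transected arrays as separate points and a bar at each group's geometric mean. At 11 d the transected arrays of hmgcs1, msmo1, dhcr7 and fads2 lie below every sham array, while at 4 h the arrays of all 7 genes overlap.

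At 12 h the members were not on one side. The log2 difference between transected and sham arrays was below 0 for 5 of 7 members, against 42.4% of all probe sets, and their median was -0.23. limma called none of the 7, against 0.0258% of all probe sets, and 1 of 7 had an unadjusted p under 0.05, against 4.61%. That member was dhcr7, with sham signals of 664, 717 and 852.5 and transected signals of 414, 499.9 and 507. Its transected arrays all lay below its sham arrays, which held for 4.72% of all probe sets in this direction. The log2 difference was -0.65 ± 0.26 (adjusted p = 0.997, limma). For hmgcs1 and msmo1, both far below their 4 h level in both arms, the differences were -0.23 ± 0.33 and -0.43 ± 0.40. The carrier stard4 stood at 0.25 ± 0.30, fads2 at -0.45 ± 0.36, mvk at -0.21 ± 0.36 and scd at 0.04 ± 0.36.

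At 11 d all 7 members had lower signals in transected than in sham tissue, where 6739 of all probe sets (43.5%) were lower and 6036 higher. The members' median log2 difference was -0.97, and single values ran from -1.40 (msmo1) to -0.05 (stard4). limma called 0 of 7, and 0.0452% of all probe sets. At an unadjusted p under 0.05 stood 4 of 7 members, hmgcs1, msmo1, dhcr7 and fads2, against 4.42% of all probe sets. For the same 4 genes every transected array lay below every sham array, which held for 2.99% of all probe sets.

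The desaturase fads2 had the smallest unadjusted p of the 7, at 0.0023. Its sham signals at 11 d were 3365, 1631 and 1853, and its transected signals were 852.5, 833 and 839. The 3 transected arrays were thus nearly equal, below 11 d sham arrays that spread widely. The log2 difference was -1.36 ± 0.36, 2.57-fold lower by the geometric means (adjusted p = 0.412, limma). For msmo1 the signals were 577, 439 and 344 after sham surgery and 179.8, 235 and 113.5 after transection. The lowest sham array was above the highest transected one, and the log2 difference was -1.40 ± 0.40, or 2.63-fold lower (adjusted p = 0.507). With same-numbered arrays as a block and the fit limited to the brightest 10334 probe sets, msmo1 passed at an adjusted p of 0.0191, and with the block alone it did not (0.194).

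The mevalonate enzyme hmgcs1 had 11 d signals of 769.8, 595 and 492 in sham and 382, 316 and 197.5 in transected arrays. The log2 difference was -1.08 ± 0.33, 2.11-fold lower (adjusted p = 0.583, limma). For dhcr7 the signals were 799, 965 and 630.2 in sham and 488, 383 and 345 in transected arrays, a difference of -0.97 ± 0.26 (adjusted p = 0.427). For both genes, as for msmo1 and fads2, neither group's arrays reached into the other, so all 3 same-numbered pairs were lower of necessity. The remaining members overlapped between groups. For mvk the difference was -0.45 ± 0.36 with 3 of 3 pairs lower, and its transected replicate 3 was at the floor of 16, so its difference there is bounded by the floor. For scd it was -0.52 ± 0.36, with transected signals of 21.8, 30.2 and 51.9, and the highest of these lay inside the sham range of 35.9 to 58.0. The level of stard4 at 11 d was 22.2 to 44.7 in sham and 28.4 to 32.5 in transected arrays, and its difference of -0.05 ± 0.30 turned to 0.20 without both replicate 3 arrays.

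Markers of other cells were compared at 11 d beside these differences. Of 16 listed microglial and leukocyte markers 12 were measured, 9 of them higher and 3 lower after transection, with none passing the test and lyz at the floor on all 3 transected arrays. Their summed signal was 3460 to 4053 on sham and 4647 to 5314 on transected arrays, which did not overlap. Of 8 erythrocyte markers 6 were measured and all 6 were lower, with sums of 8563 to 15555 on sham and 6927 to 11986 on transected arrays, which overlapped. One of them, alas2, the heme synthesis enzyme of red cells, fell by 2.29 (adjusted p = 0.0333, limma). Of the 9 neuronal markers 8 were higher and 1 lower, with none passing. The arrays of uchl1 (0.63 ± 0.15) and tubb5 (1.75 ± 0.43) did not overlap, transected being higher, which held for 2.73% of all probe sets. Sums of the neuronal list (16209 to 20230 and 17714 to 24306), of the myelin list, with 5 of 12 measured (17568 to 25575 and 13042 to 24120), and of the radial glial list, with 9 of 12 measured (18957 to 22328 and 18767 to 24675), overlapped between sham and transected arrays. Bright genes dominate such sums, so dimmer markers hardly count. The brightest by mean level were mbpa for myelin (17370), fabp7a for radial glia (7255) and cd74a for leukocytes (1647). Myelin markers were 2 higher and 3 lower. The 9 radial glial markers were split, 4 higher and 5 lower. One of them, cyp19a1b, the brain aromatase, fell by 3.64 on the log2 scale (adjusted p = 0.0119, limma). Another, glulb (0.66 ± 0.24), was higher without overlap and did not pass. The part of these cell types in the lipid genes' values was not tested.

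**Figure D2:**
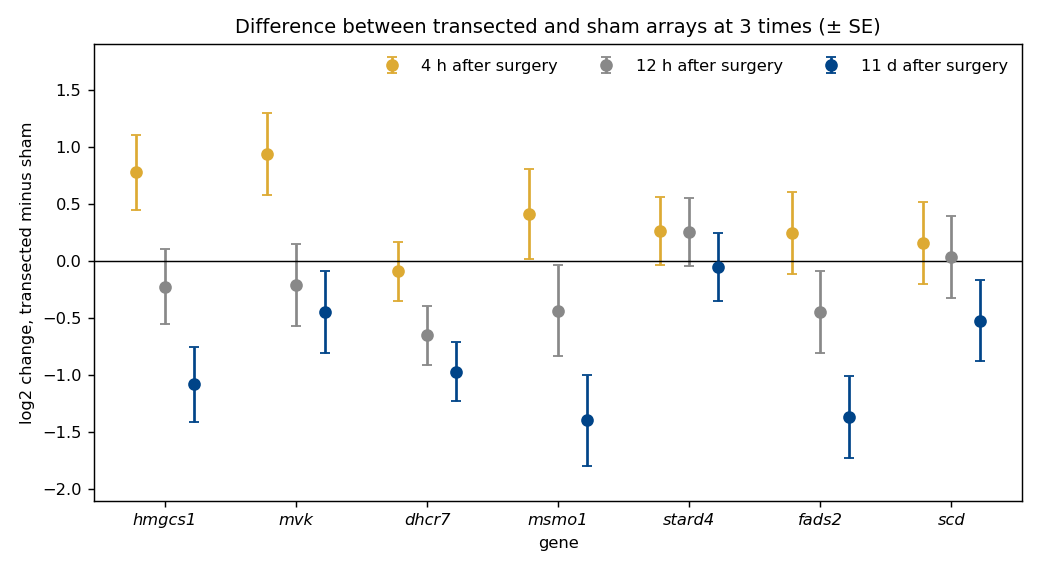
Log2 difference between transected and sham arrays for each of the 7 genes at 4 h, 12 h and 11 d, with bars for the SE of the limma model. Values run from 0.94 for mvk at 4 h to -1.40 for msmo1 at 11 d, and the 11 d value is the lowest of the 3 for all 7 genes.

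The switch itself was tested as the difference between the injury effect at 11 d and that at 4 h, an interaction term. The change was below 0 for 7 of 7 members, where 44.0% of all probe sets were below 0, and the members' median was -1.39. limma called none of the 7, and 0.0258% of all probe sets. At an unadjusted p under 0.05 stood 5 of 7 members, against 3.11% of all probe sets. The largest change was that of hmgcs1, at -1.86 ± 0.47 (unadjusted p = 0.00165, adjusted p = 0.802, limma). It was -1.81 ± 0.56 for msmo1, -1.61 ± 0.51 for fads2, -1.39 ± 0.51 for mvk and -0.88 ± 0.37 for dhcr7. For scd (-0.68 ± 0.51) and stard4 (-0.31 ± 0.42) the change was within 2 SE of 0. Among the members mvk alone was higher after transection in all 3 same-numbered pairs at 4 h and lower in all 3 at 11 d. Its adjusted p for the change was 1.0 and, with the block, 0.278. Between 12 h and 4 h the change of the injury effect, a comparison added after the data were seen, was -1.003 ± 0.47 for hmgcs1 and -1.15 ± 0.51 for mvk, and 0 of 7 members passed (0.0129% of all probe sets). At an unadjusted p under 0.05 stood 1 of 7, against 3.45%.

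The members also differed between the times within the sham arrays. From 4 h to 11 d all 7 were lower, against 40.3% of all probe sets, with a median log2 change of -0.21. None passed the test (limma, 0.0% of all probe sets), and 2 of 7 had an unadjusted p under 0.05, against 5.17%. These were scd, at -0.83 ± 0.36, and stard4, at -0.70 ± 0.30 (adjusted p = 0.836 for both). For scd the sham signals were 62.2, 131.3 and 69.0 at 4 h and 58.0, 35.9 and 48.7 at 11 d, with no overlap between the times. The 4 h values of hmgcs1 lay wholly above its 11 d values too, a change of -0.56 ± 0.33. In this direction 2 of 7 members did not overlap, against 2.77% of all probe sets. The changes of mvk (-0.12 ± 0.36), dhcr7 (-0.20 ± 0.26), msmo1 (-0.21 ± 0.40) and fads2 (-0.11 ± 0.36) were smaller than their SE. On the deposited scale, where the median of all probe sets moved by 0.10, mvk and fads2 turned to 0.12 and 0.004. The 6 erythrocyte markers were all higher in sham arrays at 11 d than at 4 h, with a median of 0.67, 3 of them at an unadjusted p under 0.05 and none passing, and their part was not tested.

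In sham arrays the low point of several members was at 12 h. From 4 h to 12 h the median change was -0.29, 6 of 7 members were lower (42.0% of all probe sets), none passed (limma, 0.0258%), and 3 of 7 had an unadjusted p under 0.05 (5.8%). The signals of hmgcs1 at 12 h were 272, 332 and 506, all below the lowest 4 h sham array, a change of -1.33 ± 0.33 (adjusted p = 0.452). Those of msmo1 were 110.8, 167 and 275, likewise all below 4 h, a change of -1.58 ± 0.40 (adjusted p = 0.469). Both genes therefore stood lower in sham tissue at 12 h than at 4 h by more than the spread between arrays, without passing after adjustment. Such non-overlap held for 2 of 7 members, against 4.4% of all probe sets. The change of scd was -0.82 ± 0.36, while those of dhcr7, fads2, mvk and stard4 lay between -0.29 and 0.11. Over the 3 sham groups together an F test gave its smallest adjusted p to msmo1 (0.389) and hmgcs1 (0.422), and none of the 7 passed (limma, 0.0258% of all probe sets). At an unadjusted p under 0.05 stood 3 of 7, against 7.05%. All 12 h arrays had the high GAPDH ratios given above, so time and ratio cannot be told apart between these groups. Within the 12 h sham arrays the ratio was 3.15, 3.72 and 5.40 on replicates 1 to 3, and the part of the ratio was not tested.

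**Figure D3:**
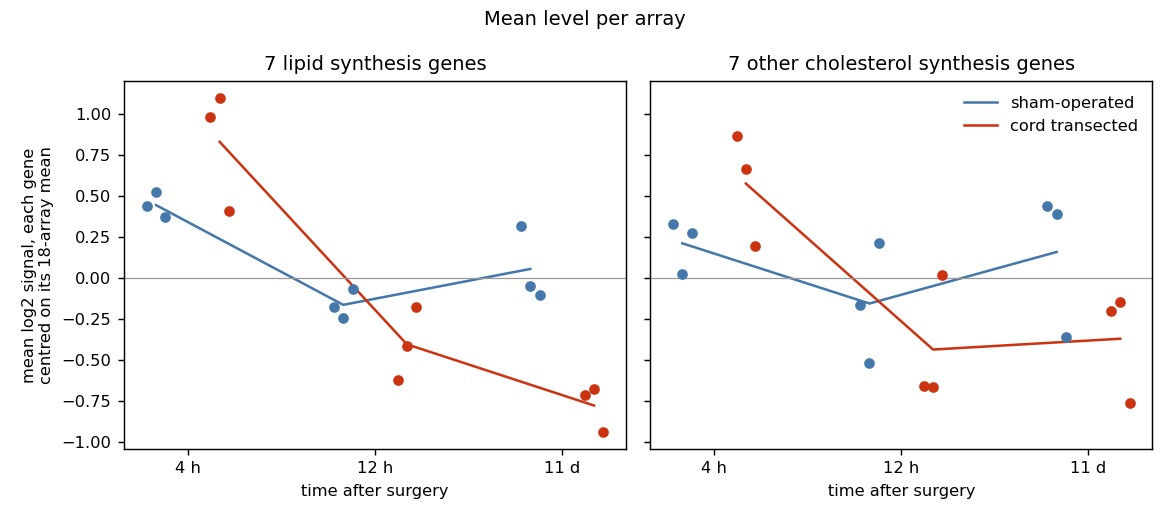
Mean of the 7 genes on each array, each gene centred on its mean over the 18 arrays (log2), by time for sham and transected arrays, with the mean of the 7 other measured cholesterol synthesis genes in a second panel. Lines join the group means and the times are evenly spaced. Transected arrays lie at 0.414 to 1.102 at 4 h and at -0.94 to -0.68 at 11 d, and sham arrays at 0.37 to 0.53 and -0.10 to 0.32.

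Within the transected arrays hmgcs1, the early mevalonate enzyme, passed the test for a change over time. From 4 h to 11 d all 7 members were lower, against 40.7% of all probe sets, and all 7 had an unadjusted p under 0.05, against 7.28%. In all 7 every 11 d array lay below every 4 h array, which held for 5.3% of all probe sets. Their median log2 change was -1.51. The signal of hmgcs1 went from 1741, 2053 and 1014 to 382, 316 and 197.5, so that it fell by 2.42 on the log2 scale, 5.34-fold (SE 0.33, adjusted p = 0.0152, limma). It was the 1 member of 7 called, among 0.252% of all probe sets (0.142% called lower). The adjusted p was 0.0765 without transected replicate 2 of 4 h, 0.0780 on the deposited scale and 0.0512 without the 12 h arrays. The changes of msmo1 (-2.02 ± 0.40, adjusted p = 0.0681) and fads2 (-1.72 ± 0.36, adjusted p = 0.0872) did not pass. For fads2 the transected signals were 3823, 3176 and 1745 at 4 h and 852.5, 833 and 839 at 11 d. The changes were -1.50 ± 0.36 for mvk, -1.51 ± 0.36 for scd, -1.08 ± 0.26 for dhcr7 and -1.01 ± 0.30 for stard4, with adjusted p of 0.139 to 0.275. Among cell markers cyp19a1b fell by 3.37 over these times (adjusted p = 0.0152, limma) and tubb5, a tubulin on the neuronal list, rose by 2.55 (adjusted p = 0.0329). Their lists were mixed: 4 radial glial markers were higher and 5 lower, and 6 neuronal markers were higher and 3 lower. Of the 12 microglial and leukocyte markers 10 were higher and 2 lower, with none passing and summed signals of 2433 to 4693 at 4 h and 4647 to 5314 at 11 d. The part of these markers was not tested. The sham changes over the same times were listed above, and the test of the difference between the arms is the switch, which no member passed.

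From 4 h to 12 h, a comparison added after the data were seen, hmgcs1 and msmo1 fell in transected arrays. The signal of hmgcs1 at 12 h was 258, 278 and 397.5, and it fell by 2.33 (SE 0.33, 5.03-fold, adjusted p = 0.00793, limma). That of msmo1 was 99.5, 116 and 179.1, and it fell by 2.42 (SE 0.40, 5.37-fold, adjusted p = 0.0173). These were 2 of 7 members called, among 1.23% of all probe sets (0.568% called lower). Of the 7, 6 were lower, against 42.2% of all probe sets, 6 had an unadjusted p under 0.05, against 13.6%, and 5 did not overlap in this direction, against 9.33%. The call of hmgcs1 held in each of the alternatives run, with adjusted p of 0.00218 to 0.0419. None of these took account of the GAPDH ratio, which was 1.73 to 2.04 on transected arrays at 4 h and 4.31 to 4.78 at 12 h. That of msmo1 was lost on the deposited scale (0.0573) and when 1 of 4 arrays was left out: transected replicate 1 (0.0593) or 2 (0.0691) of 4 h, or replicate 1 (0.0681) or 2 (0.0566) of 12 h. Sham arrays changed over the same times by -1.33 ± 0.33 for hmgcs1 and by -1.58 ± 0.40 for msmo1, without passing. The change of the injury effect from 4 h to 12 h, which tests the difference between the arms, was -1.003 ± 0.47 and -0.85 ± 0.56, and neither passed. In transected tissue the geometric mean of hmgcs1 was 305 at 12 h and 288 at 11 d. In sham tissue it was 357 at 12 h and 608 at 11 d. For msmo1 the transected means were 127 and 169 and the sham means 172 and 443. The change from 12 h to 11 d was not tested in either arm. The carrier stard4 stood at 0.10 ± 0.30, with 12 h transected signals of 60.8, 91.0 and 51.2. Over these times in transected arrays the neutrophil marker mpx rose by 3.15 (adjusted p = 0.0181, limma), from at most 43.5 at 4 h, with 1 array at the floor, to between 109 and 341.5 at 12 h. In sham arrays mpx was 27.0 to 64.3 and 112.2 to 319. Of the 12 microglial and leukocyte markers 5 were higher and 7 lower. The 5 measured myelin markers were 2 higher and 3 lower, from -0.95 ± 0.35 for cldnk (adjusted p = 0.235, limma) to 0.22 for mbpa. The part of these markers and of the GAPDH ratio in these changes was not tested.

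Ordered by geometric mean signal, the highest group of hmgcs1, mvk, msmo1, fads2 and scd was transected 4 h. It was followed for hmgcs1 by sham 4 h (897), sham 11 d (608), sham 12 h (357), transected 12 h (305) and transected 11 d (288), and the last 3 overlapped. The lowest group was transected 11 d for 6 of the members, all but msmo1, whose lowest was transected 12 h. The order of dhcr7 was sham 4 h (904), transected 4 h (849), sham 11 d (786), sham 12 h (740.5), transected 12 h (472) and transected 11 d (401). Its first 4 groups overlapped. For stard4 both 11 d groups (31.5 and 30.4) lay below the other 4 (51.0 to 65.7), and sham and transected arrays overlapped at each time.

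Over the 18 arrays the members followed each other to different degrees. As a description over arrays that share 6 groups and one normalisation, the Pearson correlation of a member with the mean of the other 6 was 0.913 for hmgcs1, 0.812 for fads2, 0.775 for msmo1, 0.742 for dhcr7, 0.731 for mvk and 0.657 for scd. It was 0.199 for stard4, the one member that is no enzyme. The mean of all 7, centred gene by gene, was 0.45 ± 0.08 (SD, n = 3) in sham and 0.83 ± 0.37 in transected tissue at 4 h. It was -0.16 ± 0.09 and -0.40 ± 0.22 at 12 h, and 0.06 ± 0.23 and -0.78 ± 0.14 at 11 d. The highest transected array at 11 d (-0.68) lay below the lowest of the other groups' arrays (-0.62, transected 12 h).

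Other genes of cholesterol synthesis were read from a list of 29, of which 11 were measured, 4 of them members. The other 7 were acat2, fdps, ggps1, fdft1, cyp51, lbr and nsdhl. On the brightest probe set of each, all 7 were higher after transection at 4 h (40.5% of all probe sets), with a median of 0.34. At 11 d 6 of 7 were lower (43.5% of all probe sets), with a median of -0.58. None passed the injury tests at any time. One of the 7 at 11 d, against 2.99% of all probe sets, had transected arrays all below the sham arrays: fdft1, squalene synthase, the first enzyme committed to sterols, at 122.6 to 150.0 against 171 to 263. Its difference was -0.58 ± 0.24 (adjusted p = 0.995, limma). Its sham values too were lower at 11 d than at 4 h, by a log2 change of -0.82 ± 0.24 (adjusted p = 0.823). Within transected arrays fdft1 fell by 1.65 from 4 h to 11 d (adjusted p = 0.0174) and by 1.43 to 12 h (adjusted p = 0.0181). The sterol dehydrogenase nsdhl, which works next to msmo1, fell by 2.89 from 4 h to 12 h (adjusted p = 0.0239), 1 of its arrays being at the floor. In sham arrays nsdhl changed by -1.39 ± 0.54 and fdft1 by -0.996 ± 0.24 from 4 h to 12 h, neither passing. The change of the injury effect between these times was -1.50 ± 0.76 for nsdhl and -0.43 ± 0.34 for fdft1, and neither passed. The part of the high GAPDH ratios at 12 h was not tested. The fdft1 call at 11 d was lost without transected replicate 1 or 2 of 4 h or replicate 1 of 11 d (adjusted p of 0.0579 to 0.0851), without the 12 h arrays (0.107) and on the deposited scale (0.242). The 12 h call was lost for fdft1 without transected replicate 1 or 2 of 4 h or replicate 1 of 12 h (0.0668 to 0.0750), and for nsdhl without any of these or replicate 2 of 12 h (0.0749 to 0.101). Both 12 h calls were lost on the deposited scale too (0.136 for fdft1 and 0.0954 for nsdhl). The isoprenoid enzyme ggps1, which leads away from sterols, was the 1 gene higher at 11 d, by 0.11 ± 0.41, and fdps, upstream of both branches, differed by -0.90 ± 0.43. For cyp51, the lanosterol demethylase, the brightest probe set varied between 69.3 and 1186 over arrays and differed by -1.03 at 11 d (SE 1.003). Other probe sets of cyp51 differed by -0.86 and -1.12, and 1 was at the floor throughout. At 4 h the brightest differed by 0.40 (SE 1.003), and the former by 0.22 and -0.003. Dimmer probe sets of ggps1 differed by -0.05 and 0.25 at 4 h. The dimmer probe set of lbr differed by 0.17 at 11 d, against -0.36 on its brightest.

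The control proteins of the SREBP pathway gave 4 measured genes of 10 listed. The gene insig1 encodes an anchor that in mammals holds the SREBP complex in the endoplasmic reticulum and is itself switched on by SREBP. Its 3 probe sets differed at 11 d by -0.96, -0.98 and -0.93, and none passed. On its brightest probe set the signal was 184 to 394 in sham and 384.5 to 423 in transected arrays at 4 h, and 70.9 to 212 and 68.8 to 78.8 at 11 d. Within transected arrays it fell by 2.44 from 4 h to 11 d (SE 0.44, adjusted p = 0.0471, limma), a call lost when any one of the 6 arrays of that comparison was left out (adjusted p of 0.0846 to 0.200). It was also lost with the replicate number as a block (0.0937), on the deposited scale (0.108), with a floor of 32 (0.0503), with the trended robust prior (0.0506), without the 12 h arrays (0.118) and without both replicate 3 arrays at 4 h (0.132). A dimmer probe set of insig1 fell by 2.02 over the same times (adjusted p = 0.00709) and fell by 1.46 from 4 h to 12 h (adjusted p = 0.0181). In sham arrays this probe set changed by -0.75 from 4 h to 11 d and by -1.07 from 4 h to 12 h. Its 11 d call was lost on the deposited scale (0.0802) and without transected replicate 2 of 4 h (0.0657). Its 12 h call was lost on the deposited scale, without both replicate 3 arrays at 4 h, and without transected replicate 1 or 2 of 4 h or of 12 h (adjusted p of 0.0529 to 0.1). The remaining probe set stood at -1.89 to 11 d (adjusted p = 0.0615) and at -1.04 to 12 h (0.197). Its 11 d difference passed under 4 other settings, the replicate block (0.0331), median scaling (0.0381), a pseudocount of 16 (0.0205) and the dimmest probe sets left out (0.0139). The activating protease mbtps1 (0.17 ± 0.24), mylipa, which marks lipoprotein receptors for breakdown (-0.39 ± 0.34), and insig2 (0.30 ± 0.50) were within about 1 SE of 0 at 11 d.

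Genes of fatty acid synthesis, desaturation and elongation other than fads2 and scd lay on both sides of 0 at 11 d. Of 28 listed genes 16 were measured, and without fads2 and scd 4 were higher and 9 lower of 14, with a median of -0.09. At 4 h 7 were higher and 6 lower, with a median of 0.02. At 12 h 2 were higher and 10 lower, with a median of -0.27 and none passing. The transected arrays of 4 of the 14 lay below all sham arrays at 12 h, against 4.72% of all probe sets. The elongase elovl7a was the 1 of the 14 with transected arrays below all sham arrays at 11 d (2.99% of all probe sets), at 36.1 to 59.8 against 71.5 to 86.2, a difference of -0.84 ± 0.24 (adjusted p = 0.530, limma). The differences were -0.32 for acaca, the enzyme of the committed step of fatty acid synthesis, and -0.35 for elovl1b. That of elovl5, which lengthens polyunsaturated fatty acids, was -0.52. For hacd3 the difference was 0.33 ± 0.27, for hsd17b12a -0.04 and for hsd17b12b -0.13, and none of these genes passed. Of 35 listed genes of sterol uptake, transport and efflux 15 were measured, 14 without stard4, with 5 higher and 6 lower at 11 d and a median of 0.0. The transected arrays of apoc1 and apoeb, which carry lipid between cells, lay above the sham arrays at 11 d, which held for 2.73% of all probe sets. In contrast apoea, near the floor, differed by -0.47 ± 0.22. Other genes of this list differed at 11 d by 0.25 ± 0.41 (npc1), 0.19 ± 0.26 (nr1h3) and -0.13 ± 0.38 (scarb1).

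**Figure D4:**
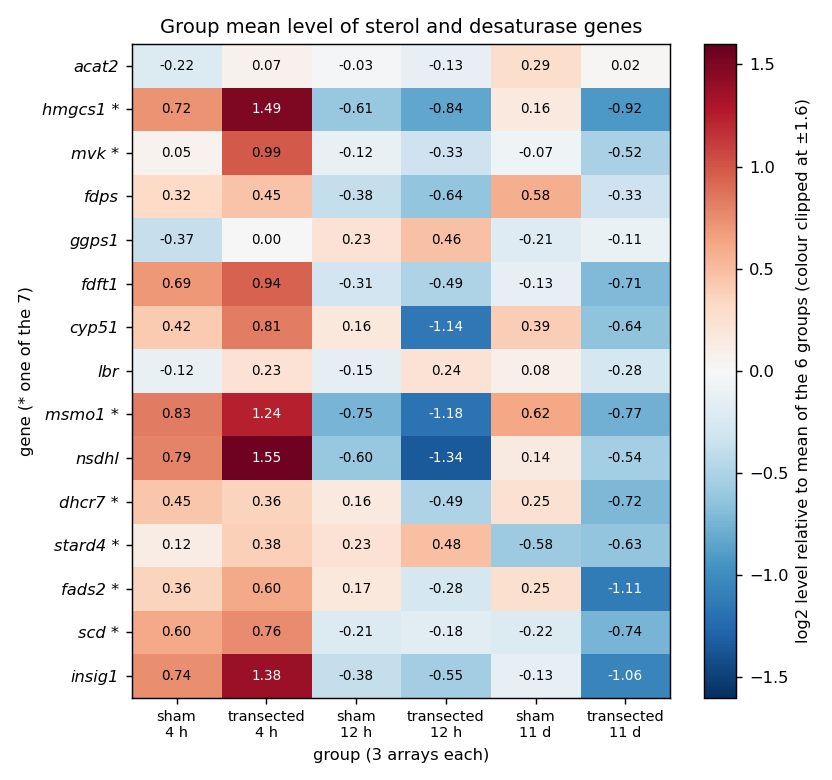
Group mean log2 signal of the measured cholesterol synthesis genes, insig1, fads2, scd and stard4, each centred on its mean over the 6 groups (colour scale in log2 units), with groups in columns. Most rows are high in the 4 h columns and low in transected 12 h and 11 d, while ggps1, acat2, lbr and stard4 differ from that order.

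The probe sets most like the members' mean over the 18 arrays were found among 5893 with a single symbol and a mean level above the median, by Pearson correlation and with no test. They were fdft1 (0.947), insig1 on 3 probe sets (0.937, 0.882 and 0.877), chchd10, a mitochondrial protein (0.903), mibp (0.872), nsdhl (0.865), cyp51 (0.834), rps19, a ribosomal protein (0.829) and cdpf1 (0.829). The first and several of the others stand in the lists above. The gene chchd10 differed by 0.15 at 4 h and -0.67 at 11 d (adjusted p = 0.188, limma). Within transected arrays chchd10 changed by -0.737 from 4 h to 12 h (adjusted p = 0.0214, limma) and by -0.865 to 11 d (adjusted p = 0.0207). For mibp the geometric mean signal was 353 in sham and 503 in transected tissue at 4 h and 259 and 92.1 at 11 d. It differed by -1.49 at 11 d (adjusted p = 0.354, limma). Within transected arrays mibp changed by -2.448 from 4 h to 11 d (adjusted p = 0.0183, limma) and by -1.342 to 12 h (adjusted p = 0.107). A fall that passed in transected arrays was thus not confined to the sterol genes, while rps19 and cdpf1 passed at neither time.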

How the data were processed

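The deposited values are 1 linear intensity per probe set and array, as the values themselves show. Per the labels' protocols, RNA from laser-captured tissue was purified, amplified and prepared as biotin-labelled cDNA. Which software summarised the probes, and any genome build, are not given in the sources used here, and no coordinates are printed. From these intensities the 18 arrays were quantile normalised over 15617 probe sets, floored at 16 and put on a log2 scale, and 115 control probe sets were left out. Symbols came from the platform annotation, updated by gene number: 10795 probe sets have 1 symbol, 135 several and 4572 none, and only the first are named.

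A model of 6 group means was fitted with limma 3.58.1 (R 4.3.3, lmFit and eBayes, 12 residual degrees of freedom, prior 0.51), and p-values were adjusted by Benjamini-Hochberg over 15502 probe sets within each contrast. Time contrasts share arrays with the injury contrasts. The members and lists were chosen with earlier results of these data known, so their counts and medians carry no test. The brightest probe set stands for a gene. In each list the 4 genes above the median level with the largest change at 4 h, and the 4 at 11 d, were picked for naming, together with the 10 probe sets most like the members. Others (lbr, insig2, me1, apoea, the dimmer probe sets of insig1, cyp51, ggps1, lbr and me1, and the cell markers) were named after their values were seen.

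Same-numbered sham and transected arrays deviated from their group means together at 4 h (r = 0.638, 0.395 and 0.268) and 11 d (0.244, 0.499 and 0.665) but not at 12 h (0.109, -0.014 and 0.141), so block values are given for 4 h and 11 d. Differently numbered arrays did so too in part. At 11 d sham 1 with transected 2 gave 0.238 and sham 2 with transected 1 gave 0.352. At 4 h sham 2 with transected 3 gave 0.240 and sham 3 with transected 2 gave 0.104. All other differently numbered arrays at these times gave values below 0. The labels state only numbers, so the pairing comes from these data, which bear it out only in part. Alternatives were other scalings and floors, a filter on dim probe sets, a trended robust prior, the block, and leaving arrays out. The fits without both replicate 3 arrays at 4 h and without the 12 h arrays were added after the data were seen. The number of arrays limits the precision.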

Additional observations from a re-analysis of the deposited data

Results flagged for a closer look

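The gene mvk, mevalonate kinase, was the one member with same-numbered arrays all on one side at 4 h (3 of 3 higher after transection) and all on the other at 11 d (3 of 3 lower). The injury effect changed by -1.39 on the log2 scale between these times (SE 0.51). The difference was tested as an interaction and did not pass, with a limma adjusted p of 1.0, and 0.278 with same-numbered arrays as a block. No label states that same-numbered arrays are paired. Over the alternatives the change ran from -1.76 to -0.82. Its signals are low, with 1 transected array at 11 d at the floor.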

How the results depend on the processing

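Of the members' counts and medians 158 of 173 values under other settings, and 122 of 141 with 1 array left out, lay near those reported: medians within 0.212, the SD between replicates of the members' mean, and counts within 1.5 times. Of the values of named genes 894 of 939 and 654 of 717 kept their direction and side of the threshold. The median of the switch became -0.88 with a floor of 32 and -0.99 with a pseudocount of 16. At 11 d 1 member passed (msmo1) with the replicate block on the brightest 10334 probe sets. In transected arrays from 4 h to 11 d the median was -1.23 on the deposited scale, -1.14 with the pseudocount and -1.73 without both replicate 3 arrays at 4 h, and the number of members called was 0 on the deposited scale and without the 12 h arrays, and 3 with median scaling, the pseudocount or the brightest 10334 probe sets only. From 4 h to 12 h in transected arrays the deposited scale gave a median of -0.68 and 1 call, and without both replicate 3 arrays at 4 h the median was -1.21. The change of the injury effect from 4 h to 12 h then had a median of -0.94. The cause of these shifts was not tested.

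With 1 array left out in turn, medians ran from 0.14 to 0.58 at 4 h, from -0.47 to -0.11 at 12 h and from -1.13 to -0.82 at 11 d. They ran from -1.64 to -1.12 for the switch, from -1.02 to -0.47 for the 12 h change of the injury effect, and from -0.427 to -0.042 in sham arrays from 4 h to 11 d. In transected arrays they ran from -1.73 to -1.48 (11 d) and from -1.21 to -0.78 (12 h), with 0 to 1 and 1 to 2 members called.

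Directions turned for dhcr7 at 4 h (0.004 with median scaling and 0.287 without both replicate 3 arrays), mvk at 12 h (0.063 with a floor of 32) and stard4 at 11 d (0.20 without both replicate 3 arrays). In sham arrays from 4 h to 11 d they turned for fads2 and mvk, to 0.004 and 0.121 on the deposited scale and to 0.003 and 0.104 without both replicate 3 arrays at 11 d. In transected arrays acat2 and ggps1 turned to 0.173 and 0.289 on the deposited scale and to 0.185 and 0.230 without those arrays. For the change of the injury effect from 4 h to 12 h scd turned to 0.023 and stard4 to 0.157 on the deposited scale, and stard4 to 0.002 with the pseudocount. With 1 array left out, differences spanned 0 for some genes. They ran at 4 h from -0.404 to 0.104 (dhcr7), -0.047 to 0.491 (scd), -0.004 to 0.482 (acat2), -0.155 to 0.680 (ggps1) and -0.108 to 0.287 (fdps), at 12 h from -0.425 to 0.023 (hmgcs1) and -0.207 to 0.264 (scd), and at 11 d from -0.302 to 0.201 (stard4) and -0.215 to 0.442 (ggps1). In sham arrays they ran from -0.381 to 0.252 (mvk) and -0.427 to 0.095 (fads2) to 11 d, and from -0.434 to 0.199 (mvk) and -0.145 to 0.272 (stard4) to 12 h. In transected arrays they ran from -0.284 to 0.185 (acat2) and -0.349 to 0.230 (ggps1) to 11 d, and from -0.134 to 0.280 (stard4) to 12 h. The 12 h change of the injury effect ran from -0.247 to 0.245 (stard4) and -0.456 to 0.107 (scd).

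On the deposited scale 11 probe sets rose and 0 fell in transected arrays from 4 h to 11 d, against 17 and 22 after quantile normalisation, and 142 rose and 3 fell from 4 h to 12 h, against 103 and 88. There the median of all probe sets moved by 0.15 and 0.12. The replicate block changed no member's call on its own (at 11 d msmo1 had an adjusted p of 0.194). At 12 h, where the numbers do not pair the samples, the block gave 2 calls over all probe sets against 4. At 11 d it gave 6 against 7, and 43 against 15 on the brightest 10334. Each member has 1 probe set, so the mean over a gene's probe sets equals the value given. Low signals near the floor limit mvk, stard4 and scd.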

Other observations

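Transcripts of 2 apolipoproteins, which carry lipid between cells, had higher signals in transected than in sham tissue at 11 d. The signal of apoc1, an apolipoprotein, was 2238 to 3208 on sham and 4228 to 5114 on transected arrays, a log2 difference of 0.75 ± 0.27 (adjusted p = 0.840, limma). That of apoeb, a zebrafish form of apolipoprotein E, was 530.5 to 873 and 978 to 1055, a difference of 0.55 ± 0.24 (adjusted p = 1.0). At 4 h apoeb was 1041 to 1585 on transected and 774.7 to 959.7 on sham arrays, without overlap (2.67% of all probe sets), a difference of 0.47 ± 0.24 (adjusted p = 1.0), and its injury effect differed between 11 d and 4 h by 0.08 ± 0.34. For apoc1 the 4 h difference was -0.24 ± 0.27, and the change between these times was 0.99 ± 0.39 (adjusted p = 1.0). At 11 d neither gene's arrays overlapped between groups, which held for 2.73% of all probe sets in this direction, and neither passed the test. The summed microglial and leukocyte markers were also higher on transected arrays at this time (4647 to 5314 against 3460 to 4053), and their part was not tested. The NADPH-supplying enzyme me1 was 19.2 to 34.0 on sham and 35.1 to 47.5 on transected arrays, a difference of 0.54 ± 0.25 (adjusted p = 1.0). Its mean level of 25.4 was near the floor, and its dimmer probe set, with a mean level of 16.2, differed by 0.05. In sham arrays me1 also rose from 4 h to 11 d, by 0.54 ± 0.25.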
